A study of Homo sapiens with 6 samples.

Results

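The alpha-arrestins ARRDC1, ARRDC2, ARRDC3, ARRDC4 and TXNIP were followed across all 6 arrays of a study of the transcription factor MIST1 in gastric cancer cell lines. They are 5 genes of the human alpha-arrestin family, taken by name with every probe set that the platform annotation assigns to a single one of these genes, which gave 8 of 41039 single-gene probe sets and 5 of the 19741 genes they name. TXNIP had 3 probe sets, ARRDC1 had 2, and ARRDC2, ARRDC3 and ARRDC4 had 1 each. The family was chosen by the measured values of ARRDC3, which stood among the genes higher in the arrays labelled MIST1 than in both controls, so MIST1 against either control is given below as a description and was not tested. The MIST1 arrays do enter the tests. They are part of the difference in line against line and in the change on transfection between lines. In GFP control against parental cells they enter the estimate of the spread, so that test is not free of them either. The study looked for genes raised by MIST1, a basic helix-loop-helix factor of mature secretory cells that is encoded by BHLHA15.

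Both lines come from human stomach tumours, AGS from an adenocarcinoma and HGC-27 from an undifferentiated carcinoma. For each there was 1 parental array from cells that were not transfected, 1 of cells nucleofected with 3 µg of empty vector and 1.5 µg of a GFP plasmid (the GFP control), and 1 of cells given 3 µg of MIST1 plasmid with the same GFP plasmid. Both transfected populations were sorted on GFP after 24 h and grown for another 24 h, so transfection and sorting are shared by the GFP control and MIST1 arrays and absent from the parental ones, as far as the labels say. Transfection was transient, and the labels name DMEM or RPMI as the medium without saying which line had which, so line and medium cannot be told apart. No condition was repeated within a line, so each value is 1 array. P-values below measure only the spread between these arrays, with the other line or the other conditions standing in for replicates.

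Alpha-arrestins are cytosolic adaptors built on arrestin folds. Through short proline and tyrosine motifs in their tails they bring ubiquitin ligases of the NEDD4 family to membrane proteins, which are then ubiquitinated, internalized and sorted. TXNIP also binds and inhibits thioredoxin, and it lowers glucose uptake by promoting internalization of the transporter SLC2A1. TXNIP and ARRDC4 are textbook targets of the glucose-sensing factor MondoA (encoded by MLXIP) with its partner MLX, which bind paired E-box-like elements called carbohydrate response elements, while ARRDC1 is known for budding vesicles at the plasma membrane with TSG101.

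The sequence before the RefSeq start site is shown for TXNIP and ARRDC4, the members whose change on transfection differed between the lines, and for ARRDC3, the member that was higher with MIST1. These are the 250 bases before a start in GRCh38.p14, read 5′ to 3′ on the gene's strand (for TXNIP the first and for ARRDC3 the second of 2 listed starts), minus for TXNIP and ARRDC3 and plus for ARRDC4. Capitals mark matches to a spelling of the paired element (the letters CACGNG repeated after a gap of any 5 bases), to the E-box CACGTG, to the E-box spelled CAGCTG, to the one spelled CATATG, or to GTAAACA, the core bound by forkhead FOXO factors, on either strand.
TXNIP chr1:145996580-145996829: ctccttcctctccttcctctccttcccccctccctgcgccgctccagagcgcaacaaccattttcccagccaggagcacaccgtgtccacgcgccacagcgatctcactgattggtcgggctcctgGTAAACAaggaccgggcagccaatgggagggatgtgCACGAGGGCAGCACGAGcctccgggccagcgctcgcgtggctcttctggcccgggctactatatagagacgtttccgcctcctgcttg
ARRDC4 chr15:97960453-97960702: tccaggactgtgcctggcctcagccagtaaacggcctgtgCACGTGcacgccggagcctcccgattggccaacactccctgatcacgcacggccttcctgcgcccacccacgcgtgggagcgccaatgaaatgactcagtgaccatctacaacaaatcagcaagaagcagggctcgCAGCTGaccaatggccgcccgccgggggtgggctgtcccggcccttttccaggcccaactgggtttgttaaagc
ARRDC3 chr5:91380098-91380347: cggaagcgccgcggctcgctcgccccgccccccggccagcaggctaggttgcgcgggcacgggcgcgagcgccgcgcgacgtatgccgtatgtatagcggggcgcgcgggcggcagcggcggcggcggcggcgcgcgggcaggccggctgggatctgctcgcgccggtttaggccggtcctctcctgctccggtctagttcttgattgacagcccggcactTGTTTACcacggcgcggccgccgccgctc

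All 5 members had a window in the RefSeq table, 8 windows in all, and each search covered both strands of 300 bases, 250 before and 50 after the start. The TXNIP window shown held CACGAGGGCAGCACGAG, which begins 88 bases before the start and is spelled like the paired element. Matches to this spelling were found in 20 of 35116 windows, or 0.057%. It also held GTAAACA beginning 124 bases before the start, a motif found in 3.42% of windows. The ARRDC4 window held CACGTG beginning 210 bases before the start, found in 7.26% of windows, and CAGCTG beginning 74 bases before it, found in 17.9%. Both E-boxes also match the general spelling CANNTG, which was present in 68.7% of windows. The ARRDC4 window held no match to the paired element as spelled here. The ARRDC3 window shown held GTAAACA on the opposite strand beginning 29 bases before the start. Neither ARRDC3 window held CATATG, which was present in 3.04% of all windows, nor CAGCTG, the E-boxes usually linked to MIST1. The ARRDC3 window shown held 1 E-box of the general spelling, CACTTG, beginning 33 bases before the start. The windows of ARRDC1 and ARRDC2 held none of these capitalized motifs, nor did the windows of TXNIP and ARRDC3 that are not shown. For these genes the window shown is thus the one with matches. A match is a stretch of letters in the reference and not a measured binding site.

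Values are deposited probe set intensities on a linear scale. Values under 17.6, the 25th percentile, were raised to it, which is called the floor here, before log2 was taken. A gene was tested where at least 2 arrays exceeded the median of all values, 50.53, and its brightest probe set stood for it, which left 13730 genes. All 5 members were tested. Of the 8 probe sets, 7 were above that median in all 6 arrays. The exception was a second ARRDC1 probe set (234607_at), which was above it in 0 of 6 arrays and under the floor in 3. It read 37.5, 29.7 and 23.2 in AGS parental, GFP control and MIST1 cells, and 16.2, 10.03 and 17.58 in HGC-27. It is not used further.

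All 5 epithelial markers listed were higher in AGS, and VIM, ZEB1 and FN1 were higher in HGC-27. The summed level of EPCAM, CDH1, KRT8, KRT18 and KRT19 lay between 39088 and 46067 in AGS and between 1448 and 1690 in HGC-27, where EPCAM, KRT18 and KRT19 stayed below the median of all values and KRT8, at 1350 to 1562, gave most of the sum. The summed level of VIM, ZEB1, FN1 and CDH2 was 340 to 371 in AGS against 13879 to 15155 in HGC-27, of which VIM alone gave 12532 to 13731. CDH2 was near the median of all values in both lines, from 44.4 to 57.6. Of the leukocyte markers, PTPRC, CD3E and CD14 were listed and read at most 66.7. Of the endothelial markers, CDH5 and VWF were below the median in every array and PECAM1 read at most 101. The BHLHA15 probe set did not separate the arrays labelled MIST1 (72.5 in AGS, 58.7 in HGC-27) from the GFP controls (75.9 and 61.9), so the labels have no check from it. Whether it reads the construct is not known. RAB3D, a secretory vesicle GTPase, went from 540 in the GFP control to 1308 in the MIST1 array of AGS, and from 504 to 1783 in HGC-27. By its smallest fold over the controls it ranked number 1 of 11282 genes on these arrays, so it is no separate check of the labels.

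ARRDC3, an adaptor reported to act on the integrin subunit ITGB4, had its highest value in the MIST1 array of each line. AGS gave 132 in the parental array, 103 in the GFP control and 243 with MIST1. HGC-27 gave 295, 308 and 575 in the same order. The MIST1 array was thus the highest of its line in both, while parental and GFP control arrays lay close together, and every HGC-27 array lay above every AGS array. In bulk RNA such as this, a change in the share of cells that make a transcript and a change in the amount per cell cannot be told apart. Over the GFP control the MIST1 value was 2.36-fold in AGS and 1.87-fold in HGC-27, and over the parental value it was 1.84-fold and 1.95-fold. On the log2 scale the change over the GFP control was 1.24 and 0.90, where the median of all genes was 0 and -0.03 and the SD over genes 0.20 and 0.22.

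By the study's kind of comparison, a gene counted when it was at least 1.5-fold above both controls in both lines. Of the 5 members 1, ARRDC3, met this, beside 18 of 13730 genes (0.131%), and the choice of the family rests on this very count. Its smallest of the 4 folds was 1.84, the sixth highest of 11282 genes with both MIST1 values above the median. At the limit itself TMEM132D lay just inside at 1.51-fold and NDRG1 just outside at 1.49-fold. ARRDC1 came next among the members with a smallest fold of 1.02. No member was at least 1.5-fold lower in both lines, where 0 of 13730 genes were.

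**Figure D1:**
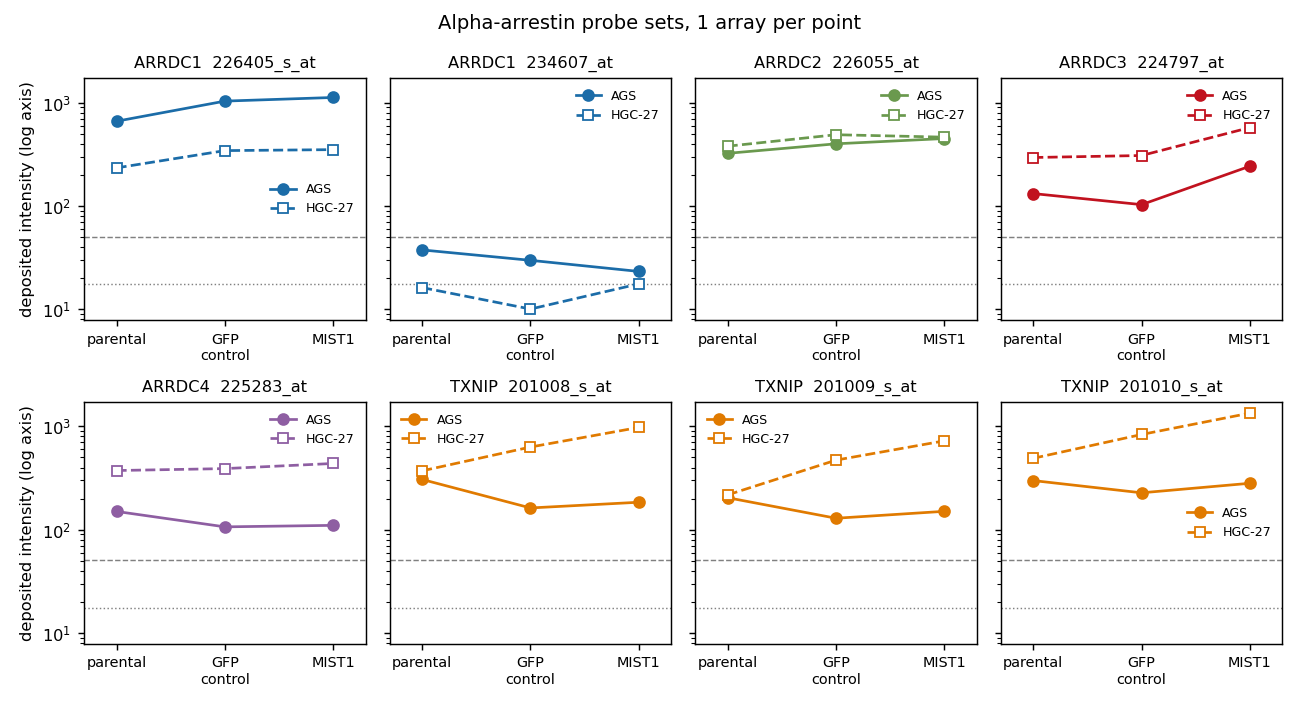
Deposited intensity (log axis) of the 8 probe sets in parental, GFP control and MIST1 arrays of AGS (filled circles) and HGC-27 (open squares), 1 array per point, with dashed lines at the median of all values, 50.53, and dotted lines at the floor, 17.6. ARRDC3 peaks in the MIST1 array of both lines, and the 3 TXNIP probe sets drop from parental to GFP control in AGS while they climb in HGC-27.

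TXNIP, the thioredoxin-binding member, gave 299, 227 and 281 in the parental, GFP control and MIST1 arrays of AGS by its brightest probe set (201010_s_at). In HGC-27 it read 491, 836 and 1346. The order of the arrays thus differed between the lines. In AGS the parental array was highest and the GFP control lowest, and in HGC-27 each condition lay above the one before it. Over the GFP control the MIST1 value was 1.24-fold in AGS and 1.61-fold in HGC-27, and over the parental value it was 0.942-fold and 2.74-fold.

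The other TXNIP probe sets gave the same order of arrays in HGC-27. Probe set 201008_s_at read 306, 162 and 184 in AGS against 371, 632 and 978 in HGC-27. Probe set 201009_s_at read 204, 129 and 151 in AGS against 217, 472 and 725 in HGC-27. By all 3 probe sets the AGS GFP control was the lowest array of its line, and the change from GFP control to MIST1 lay between 0.18 and 0.31 on the log2 scale in AGS and between 0.62 and 0.69 in HGC-27. The change from parental to GFP control varied more between probe sets, from -0.92 to -0.39 in AGS against 0.77 to 1.12 in HGC-27. The probe sets share the RNA of each array and are not replicates.

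ARRDC4, the closest relative of TXNIP in its regulation by glucose, read 150, 106 and 110 in AGS parental, GFP control and MIST1 cells, and 374, 390 and 438 in HGC-27. The MIST1 value over the GFP control was 1.03-fold in AGS and 1.12-fold in HGC-27. The MIST1 and GFP control arrays of AGS were nearly alike and both below the parental array, whereas in HGC-27 the 3 arrays lay within a narrow range.

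ARRDC1, the vesicle-budding member, read 662, 1037 and 1124 in AGS against 234, 344 and 351 in HGC-27 by the probe set used (226405_s_at). Its parental array was the lowest in both lines, and MIST1 over GFP control was 1.08-fold in AGS and 1.02-fold in HGC-27. ARRDC2, a less studied relative, read 323, 400 and 450 in AGS against 379, 490 and 464 in HGC-27. For it, MIST1 over GFP control was 1.12-fold in AGS and 0.947-fold in HGC-27, and its parental array was the lowest of each line. Among the members other than ARRDC3, the MIST1 value lay above the GFP control in both lines for ARRDC1, ARRDC4 and TXNIP, as for 24.3% of all genes, and for ARRDC1 and ARRDC4 by no more than 1.12-fold. Nothing is read from this, since the family was picked on the same contrast.

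The comparison of the GFP control with parental cells shows what transfection, sorting and handling went with in the absence of MIST1. In limma over all 6 arrays with cell line as a block, 0 of the 5 members passed at an adjusted p of 0.05, beside 33 of 13730 genes (0.24%). At an unadjusted p under 0.05 there were 2 members, ARRDC1 and ARRDC2, beside 3163 genes. The GFP control of ARRDC1 was 1.57-fold the parental value in AGS and 1.47-fold in HGC-27, a mean log2 difference of 0.60 over the 2 lines (SE 0.13, limma adjusted p = 0.0773). Leaving out the AGS parental array gave ARRDC1 a difference of 0.53, and leaving out that of HGC-27 gave 0.67. Each of these fits matches the remaining parental array exactly. Their p-values hold no spread between parental arrays, so only the differences are given. ARRDC2 differed by 0.34 (SE 0.14, limma adjusted p = 0.211), in the same direction in both lines, and by 0.37 without the HGC-27 parental array.

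The other members did not move together in the lines. TXNIP differed by -0.39 in AGS and by 0.77 in HGC-27, which gave a mean of 0.19 (SE 0.34, limma adjusted p = 0.770). ARRDC4 differed by -0.50 and 0.06 (mean -0.22, SE 0.20, adjusted p = 0.550), and ARRDC3 by -0.36 and 0.06 (mean -0.15, SE 0.17, adjusted p = 0.628). In HGC-27 the median of all genes shifted by 0.13 in this comparison, and by 0.02 after quantile normalization, while in AGS it was 0 and 0.03. The mean for TXNIP rested on single arrays. Leaving out the AGS parental array moved this mean to 0.86, and leaving out that of HGC-27 moved it to -0.49. With the HGC-27 GFP control left out it was -0.01. For ARRDC4 the mean was -0.53 without the HGC-27 parental array and 0.09 without that of AGS.

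**Figure D2:**
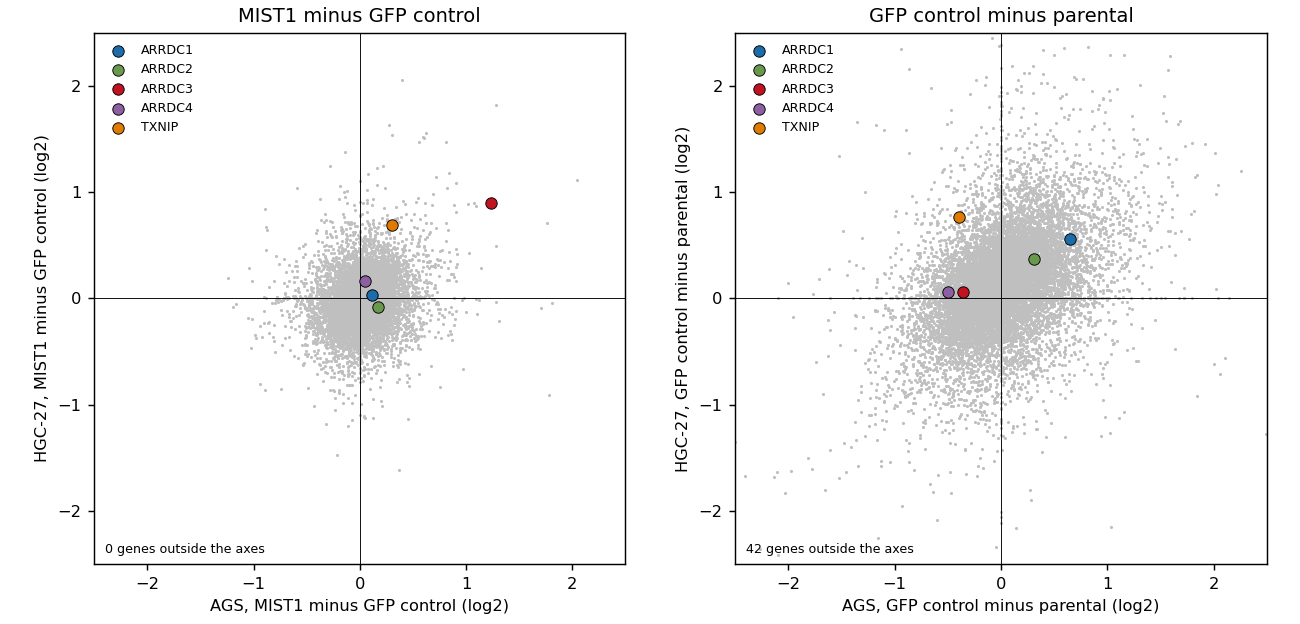
Change in HGC-27 (vertical axis, log2) against change in AGS (horizontal axis, log2) for all 13730 genes (grey) and the 5 members (coloured), for MIST1 minus GFP control on the left and GFP control minus parental on the right. No array enters both axes of a panel. ARRDC3 lies at 1.24 and 0.90 on the left, and TXNIP at -0.39 and 0.77 on the right, in the upper left quadrant.

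Whether the change on transfection differed between the lines was tested with a term for cell line by transfection, in which GFP control and MIST1 arrays together stand for transfected cells. The change of TXNIP was higher in HGC-27 than in AGS by 1.35 on the log2 scale (SE 0.17, 95% interval 0.98 to 1.72, limma adjusted p = 0.000489), and was number 268 of 13730 genes by the size of this difference. ARRDC4 differed in the same direction by 0.62 (SE 0.17, 95% interval 0.24 to 0.99, adjusted p = 0.0219). Of the 5 members 2 passed, TXNIP and ARRDC4, beside 27.1% of all genes, so a pass by itself was common. ARRDC3 differed by 0.25 (95% interval -0.16 to 0.66), ARRDC1 by -0.13 (-0.42 to 0.15) and ARRDC2 by -0.06 (-0.40 to 0.27), and none of the 3 passed.

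This fit had 1 residual degree of freedom, which came from how the change from GFP control to MIST1 differed between the lines. The parental arrays, 1 per line, were matched exactly. The SEs, intervals and p-values of this term thus hold no spread between parental arrays, although those arrays enter the difference. The TXNIP call was lost when the floor was set at the median (adjusted p = 0.0503), without the variance trend (0.0753) or with no filter (0.204). ARRDC4 failed under the same settings (0.0743, 0.0870 and 0.196) and after quantile normalization (0.0619), where its difference was 0.46. After quantile normalization ARRDC1 passed at -0.38 (adjusted p = 0.0426). With the mean of the 3 probe sets in place of the brightest the difference for TXNIP was 1.74.

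The lines themselves differed in 4 of the 5 members. In limma with condition as a block these passed at an adjusted p of 0.05, beside 60.5% of all genes. ARRDC3 was 2.51-fold higher in HGC-27 (log2 1.33, SE 0.14, limma adjusted p = 0.000191), ARRDC4 3.31-fold (1.73, SE 0.16, adjusted p = 0.000138) and TXNIP 3.07-fold (1.62, SE 0.28, adjusted p = 0.00230). ARRDC1 went the other way and was 3.01-fold higher in AGS (log2 -1.59, SE 0.10, adjusted p = 2.3e-05). ARRDC2 did not pass, with a difference of 0.19 on the log2 scale (95% interval -0.08 to 0.46, adjusted p = 0.192), and passed after quantile normalization (0.34, adjusted p = 0.0315).

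In these 4 members the 3 arrays of one line did not overlap the 3 of the other, as in 61.7% of all genes. Among parental cells alone the difference for TXNIP was 0.72 on the log2 scale, and it was 1.88 between the GFP controls and 2.26 between the MIST1 arrays. Its other probe sets gave 0.28 and 0.09 between parental cells and 1.96 and 1.87 between GFP controls. So in parental cells the gap in TXNIP depended on the probe set and was 1.64-fold by the brightest. By each probe set it was wider between the transfected arrays. The gap was steadier for ARRDC3 (1.16, 1.58 and 1.24 in parental, GFP control and MIST1 arrays) and for ARRDC1 (-1.50, -1.59 and -1.68). For ARRDC4 it was 1.32, 1.87 and 1.99. The line difference in TXNIP did not pass when dim probe sets were kept (adjusted p = 0.0710).

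**Figure D3:**
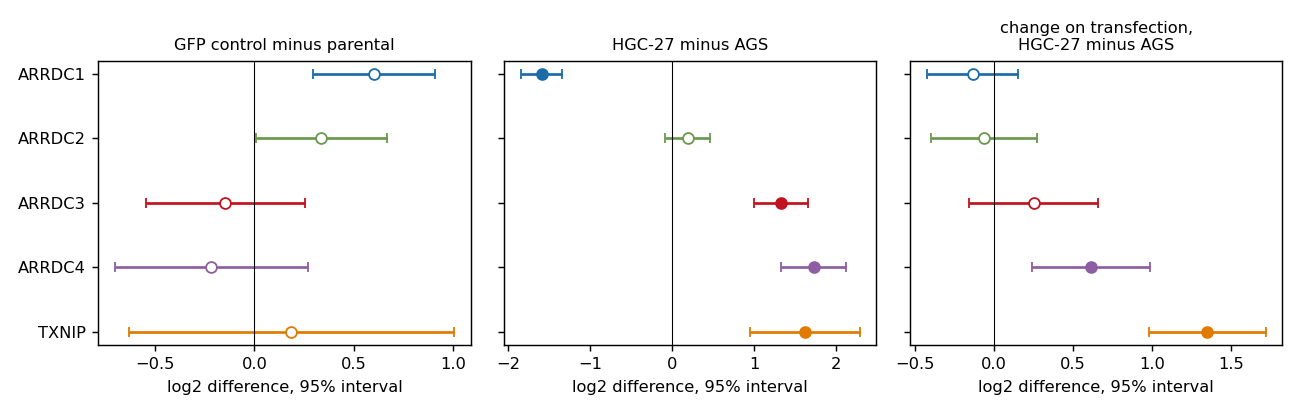
Log2 differences with 95% intervals from limma for the 5 members, for GFP control minus parental, HGC-27 minus AGS and the difference between the lines in the change on transfection. Filled points passed an adjusted p of 0.05, which 0, 4 and 2 members did. ARRDC1 lies at -1.59 in the middle panel, opposite to ARRDC3, ARRDC4 and TXNIP.

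The 5 genes nearest to ARRDC3 over the 6 arrays, by Euclidean distance between log2 values centred on the mean of each line, were TIFA, ACP2, UAP1, IQCN and FIGN, at distances from 0.32 to 0.45. TIFA, an adaptor of innate immune signalling, read 399, 417 and 890 in AGS against 484, 561 and 1027 in HGC-27. ACP2, a lysosomal phosphatase, read 961, 869 and 1557 in AGS against 475, 522 and 1185 in HGC-27. The likeness uses the MIST1 arrays on which ARRDC3 was picked, so nearness here is partly fixed by that choice.

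The 5 genes nearest to TXNIP were COQ8A, SLC40A1, SMIM3, CASP4 and SLC6A6, at distances from 0.19 to 0.29. COQ8A, a mitochondrial protein of coenzyme Q synthesis, read 666, 438 and 622 in AGS against 239, 440 and 701 in HGC-27. SLC40A1, the iron exporter ferroportin, read 780, 573 and 730 in AGS against 152, 313 and 528 in HGC-27. CASP4, an inflammatory caspase, read 406, 307 and 473 in AGS against 74.4, 115 and 189 in HGC-27. In each of these the GFP control was the lowest array of AGS and the parental array the lowest of HGC-27, as for TXNIP, which follows from how they were chosen. The levels of COQ8A, SLC40A1 and CASP4 in parental cells were higher in AGS, unlike TXNIP, since the centring removes the level of a line.

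**Figure D4:**
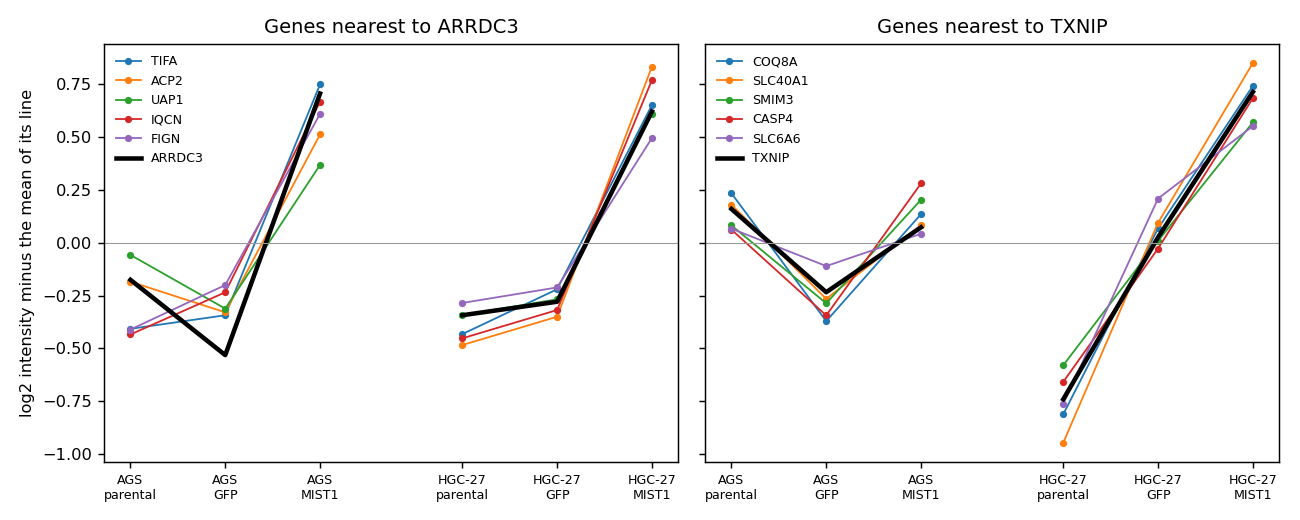
Log2 intensity minus the mean of its line (vertical axis) over the 6 arrays for ARRDC3 (left) and TXNIP (right), in black, with the 5 nearest genes of each in colour. The ARRDC3 group peaks in both MIST1 arrays, and the TXNIP group dips in the AGS GFP control and is lowest in the HGC-27 parental array.

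Partners, regulators and cargo of the family were followed in 9 lists of 77 genes, of which 66 were tested. In GFP control against parental cells 0 of the 66 passed in limma, 23 had an unadjusted p under 0.05 (beside 3163 of 13730 genes), and the median was 0.12 where that of all genes was 0.07. Between the lines 42 of 66 passed (63.6%), 15 higher in HGC-27 and 27 higher in AGS, close to the 60.5% of all genes. None of the 66 was at least 1.5-fold above both controls with MIST1 in both lines, and their median of MIST1 minus GFP control was -0.002, where that of all genes was -0.02.

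Of 11 NEDD4-family ligases and adaptors, the direct partners, 7 passed between the lines (63.6%, against 60.5% of all genes). All 7 were higher in AGS, by a log2 difference of -1.35 for the adaptor NDFIP2 (SE 0.15, adjusted p = 0.000317), -1.07 for the ligase WWP1 (SE 0.08, adjusted p = 4.55e-05) and -1.06 for the adaptor NDFIP1 (SE 0.08, adjusted p = 6.14e-05). Of all genes that passed, 4555 were higher in AGS and 3746 in HGC-27. After quantile normalization these counts were 4108 and 4498, so the balance of directions depended on scaling. The ligase ITCH was at -0.44 (adjusted p = 0.00575), and NEDD4 itself read 358, 403 and 463 in AGS against 409, 376 and 381 in HGC-27 (-0.06, adjusted p = 0.699). Of 10 ESCRT and budding genes 7 passed, 5 higher in AGS and 2 higher in HGC-27, led by VPS37B at -2.76 (SE 0.15, adjusted p = 1e-05), with STAM at 0.72 and VPS37C at -0.61. TSG101, the ESCRT subunit that ARRDC1 binds, read 1730, 1992 and 1931 in AGS against 1540, 2258 and 2252 in HGC-27 and did not pass between the lines (0.08, adjusted p = 0.522). Of 5 tested arrestin-fold relatives, ARRB1, a beta-arrestin, was lower in HGC-27 by -0.76 (adjusted p = 0.00178) and the retromer subunit VPS26A by -0.47 (adjusted p = 0.00103). ARRDC5 and ARRB2 had no single-gene probe set in the annotation used, and the MondoA relative MLXIPL did not pass the filter.

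The glucose-sensing factors MLX and MLXIP both passed between the lines, as did 60.5% of all genes. Both were higher in HGC-27, as were 3746 of the 13730 genes tested. A link of either factor to the levels of TXNIP and ARRDC4 was not tested. MLX read 1276, 1103 and 1116 in AGS against 1797, 1724 and 1684 in HGC-27 (log2 0.58, SE 0.08, limma adjusted p = 0.000875). MLXIP read 333, 426 and 502 in AGS against 461, 596 and 598 in HGC-27 (0.40, SE 0.11, adjusted p = 0.0180). Neither passed in GFP control against parental cells, with -0.13 for MLX and 0.36 for MLXIP, nor in the difference between the lines in the change on transfection (0.13 and -0.10, adjusted p = 0.352 and 0.634).

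Of 9 tested glucose transporters 8 passed between the lines (88.9%, against 60.5% of all genes), 5 higher in AGS and 3 higher in HGC-27. SLC2A1, the transporter that TXNIP removes from the surface, read 5014, 7926 and 7967 in AGS against 765, 980 and 977 in HGC-27 (log2 -2.92, SE 0.09, adjusted p = 7.54e-07). SLC2A3, a transporter of high glucose affinity, read 4542, 8339 and 8767 in AGS against 164, 502 and 956 in HGC-27 (-4.02, SE 0.27, adjusted p = 2.47e-05). SLC2A6 was higher in HGC-27 by 3.61 (SE 0.15, adjusted p = 2.53e-06), a value understated because 1 AGS array lay under the floor. The line with more TXNIP had less SLC2A1 and SLC2A3 RNA, which is a comparison of 2 lines and no correlation. Among parental cells these transporters already differed by -2.71 and -4.80, where TXNIP differed by 0.72, 0.28 and 0.09 by its probe sets. Within HGC-27, SLC2A3 rose over the arrays in the same order as TXNIP. Within AGS the orders differed: from parental to GFP control SLC2A3 changed by 0.88 on the log2 scale and TXNIP by -0.39. A link between these genes was not tested.

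Thioredoxin, the partner that TXNIP inhibits, was bright and nearly level. TXN read 7992, 7675 and 8008 in AGS against 7194, 6931 and 7423 in HGC-27 (log2 -0.14, adjusted p = 0.0248). Its reductase TXNRD1 read between 2539 and 2729 in AGS and between 2330 and 2797 in HGC-27 (-0.07, adjusted p = 0.443). Of 11 genes of the thioredoxin system 5 passed between the lines (45.5%, below the 60.5% of all genes), with TXNRD2 at 0.88 (SE 0.13, adjusted p = 0.0011), SRXN1 at -0.51 and PRDX2 at 0.36.

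Among reported cargo, ITGB4 read 512, 770 and 745 in AGS against 26.2, 27.8 and 26.4 in HGC-27 (log2 -4.63, SE 0.16, limma adjusted p = 1.31e-06). The RNA of this integrin was thus low in the line with more ARRDC3 RNA, and a link between them was not tested. F2R, the thrombin receptor, was under the floor in all 3 AGS arrays and read 283, 445 and 428 in HGC-27, so its difference of 4.42 is understated. Of 6 glucocorticoid-induced genes 4 passed between the lines (66.7%, against 60.5% of all genes). TSC22D3 at 4.88, KLF9 at 2.35 and FKBP5 at 1.89 were higher in HGC-27 and SGK1 at -0.69 was higher in AGS, and the value of TSC22D3 is understated because 2 AGS arrays lay under the floor. Of 8 FOXO targets 5 passed (62.5%), in both directions, led by SESN3 at 4.22 (also understated, with 2 AGS arrays under the floor), SESN1 at -2.43 and BCL6 at 1.71.

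**Figure D5:**
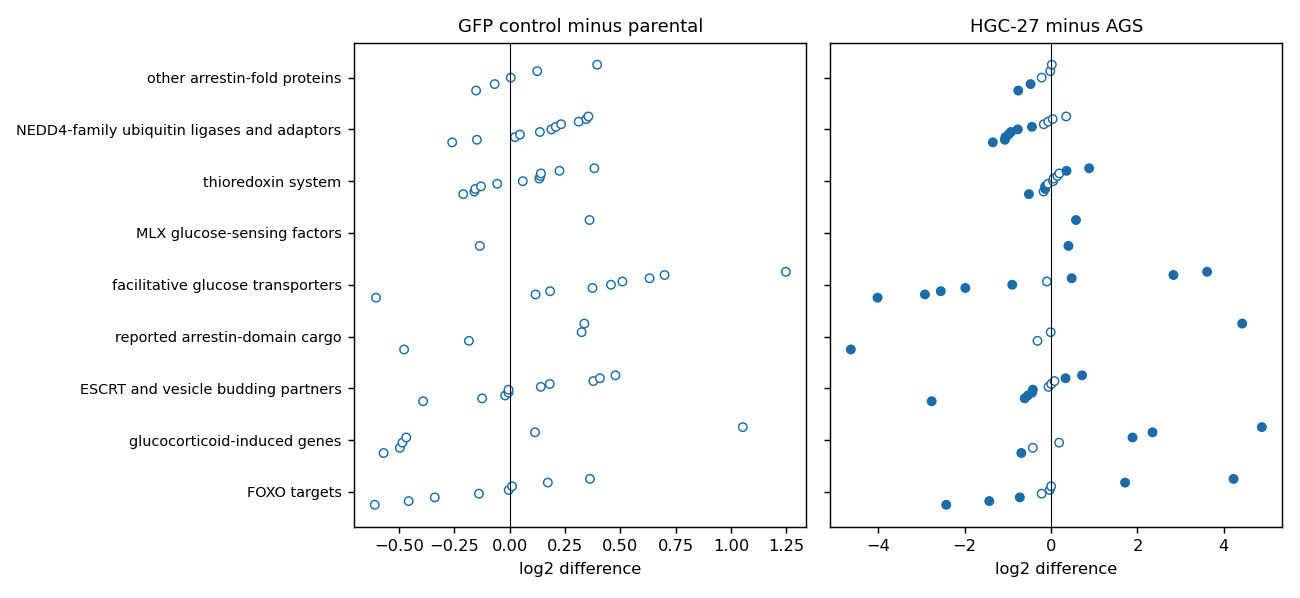
Log2 differences of the 66 tested genes of the 9 lists, 1 point per gene, for GFP control minus parental (left) and HGC-27 minus AGS (right). Filled points passed a limma adjusted p of 0.05, 0 on the left and 42 on the right, where all 7 filled NEDD4-family genes lie below 0. Of all genes tested, 4555 passed below 0 and 3746 above 0 in that comparison.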

How the data were processed

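RNA was measured on 6 Affymetrix arrays from 5 µg of total RNA each. The authors deposited intensity values per probe set on a linear scale, from 0.48 to 19070.5. Per the series design text the analysis program was dChip, and whether these are dChip values, and their background correction and scaling, are not given in these sources, the labels and file headers. Array medians of the deposited values lay between 49.12 and 51.96, and no further scaling was applied. Over the tested genes the medians were less even. The HGC-27 parental array had a log2 median of 8.23, while the other arrays ranged from 8.35 to 8.51. That array is part of the cell line by transfection term, whose balance of directions changed after quantile normalization.

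Symbols were updated through gene IDs (41043 of 41097 single-gene probe sets), and 58 probe sets of Y-linked genes and XIST were left out. Tests used limma 3.58.1 in R 4.3.3 (lmFit, eBayes with a trend, two-sided, Benjamini-Hochberg over 13730 genes), checked on simulated data. Residual degrees of freedom were 2 (1 for the cell line by transfection term), and prior ones 4.46 (9.54).

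Named were all members, fixed partner genes, up to 3 genes per list with the largest passing difference, and the 5 nearest genes to ARRDC3 and TXNIP. The members and lists were chosen with earlier results of these data known. Arrays of a line are tied by the labels, hence the block. Within a line the lowest correlation of 2 arrays over genes was 0.971. Alternatives changed the floor, filter, probe set, scaling, block, trend, arrays and fold limit. Array number limits precision.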

Additional observations from a re-analysis of the deposited data

Results flagged for a closer look

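The change of TXNIP from parental to transfected cells differed between the lines, by 1.35 on the log2 scale (HGC-27 minus AGS, limma adjusted p = 0.000489), and that of ARRDC4 by 0.62 (adjusted p = 0.0219). Both were picked out by the test of the cell line by transfection term, which 27.1% of all genes passed. Its p-values hold no spread between parental arrays, of which each line had 1. Of the 6 alternatives run, TXNIP did not pass in 3 (adjusted p = 0.0503, 0.0753 and 0.204) and ARRDC4 in 4 (0.0619, 0.0743, 0.0870 and 0.196). ARRDC2 stood out because its MIST1 value lay above the GFP control in AGS, by 0.17 on the log2 scale, and below it in HGC-27, at -0.0778. With 1 array per condition and line that difference was not tested.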

How the results depend on the processing

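All 5 members kept the direction of the line difference under the 13 alternatives run for each, and ARRDC1, ARRDC3 and ARRDC4 passed in all 13. The change of ARRDC3 from GFP control to MIST1 (log2, mean over lines 1.07) lay between 1.06 and 1.10 in the alternatives that kept both lines. Without a GFP control or MIST1 array only the other line was left, at 0.90 in HGC-27 and 1.24 in AGS. In GFP control against parental cells 33 genes passed in limma (3163 at an unadjusted p under 0.05). The count was 0 under 5 alternatives: with log2(value + 1) in place of the floor (3105 at an unadjusted p under 0.05), a floor set to the median (2856), all probe sets kept (3345), no trend in the variance (2919) and no replicate block (375). It was 1 with the mean of all probe sets, 910 with only the 4 arrays compared, and 74 after quantile normalization (28 higher and 46 lower, against 17 and 16). Leaving out 1 array gave 73 (the HGC-27 GFP control) to 5366 (the AGS parental array), with 209, 905, 924 and 4619 without the AGS GFP control, AGS MIST1, HGC-27 MIST1 and HGC-27 parental arrays. Where a parental or GFP control array was left out, the other array of that condition was matched exactly. Those counts hold no spread within that condition, so a higher count is not read as stronger evidence. With 1 array left out, the mean of this comparison ran from -0.489 to 0.862 for TXNIP. It ran from -0.525 to 0.0914 for ARRDC4 and from -0.335 to 0.0433 for ARRDC3. The mean turned direction for TXNIP without the HGC-27 parental array (-0.489) or GFP control (-0.00872). It also did for ARRDC4 without the AGS parental array and for ARRDC3 without the AGS GFP control. The cell line by transfection term passed for 3726 genes, for 658 with the higher floor, and for 0 with all probe sets kept (4581 at an unadjusted p under 0.05) or no trend (4381). After quantile normalization its calls were 1780 higher and 1744 lower in HGC-27, against 2764 and 962. It could not be fitted with an array left out. Genes at least 1.5-fold above both controls with MIST1 numbered 18, then 102 at 1.2-fold, 2 at 2-fold, and 19 to 77 with 1 array left out (32 and 30 without the AGS and HGC-27 GFP controls, 77 and 68 without the MIST1 arrays), where fewer folds had to be met. Other causes were not tested. Background correction was not varied, since scanner output was not used here.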
